A study of Mus musculus with 4 samples.

Results

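The 10 genes described here encode enzymes of glycolysis: Hk2, Pfkm, Aldoa, Aldoc, Tpi1, Gapdh, Pgk1, Eno1, Pkm and Ldha. They were chosen by name. Every mRNA transcript listed under one of these names was taken and the transcripts of a gene were summed, and the transcripts of Pkm and Aldoa were also examined singly. This gave 10 of 21878 genes and 31 of 75959 transcripts. C3H10T1/2 is a mouse embryonic line with properties of mesenchymal stem cells, and 5-azacytidine (5-AZA) is a demethylating analogue of cytidine. Stranded RNA libraries without ribosomal RNA represent 2 untreated samples (replicates 1 and 2) and 2 others of that line (replicates 101 and 102), which received 20 μM 5-AZA for 72 hours followed by 21 days of fresh growth medium. The study asked which RNAs accompany myogenic and cardiomyogenic differentiation, and its qPCR used Gapdh as the reference. The time in culture of the untreated samples is not listed separately, and the paper calls the samples of a group biological repeats but does not describe how they were cultured apart, so the p-values measure the spread between these samples.

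Levels are FPKM, fragments scaled to transcript length and to the sequenced fragments, so they can be compared between genes. They keep no read counts, and the depth behind a single value is unknown. Summed over all genes, untreated replicates 1 and 2 held 343955 and 334568 FPKM, while 5-AZA replicates 101 and 102 held 328410 and 361664 FPKM. Fold changes are differences of log2(FPKM + 0.1), 5-AZA minus untreated, which understate the change of low genes, and SE is the standard error of such a difference. A gene was called where its adjusted p in limma was below 0.05 and its change over 2-fold.

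Glycolysis splits glucose into pyruvate in the cytosol, with a first stage that spends ATP and a later one that returns ATP and NADH. Lactate dehydrogenase can then turn pyruvate into lactate and restore NAD+. Skeletal muscle holds these enzymes at high levels, often as muscle isozymes, and Gapdh mRNA is widely used as a constant reference in qPCR.

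Of the 10 genes, 9 had both 5-AZA samples above both untreated samples, an order held by 36.8% of all 13199 genes tested. At an adjusted p below 0.05 at any fold, 8 of the 10 were higher, against 18.6% of all genes. With the 2-fold criterion 2 were called, Hk2 and Aldoc, against 13.1% of all genes. None of the 10 was lower in limma, at an adjusted p or at an unadjusted p below 0.05 (0 in both cases), while 5.93% of all genes were lower at any fold and 1.32% over 2-fold. The median log2 fold change of the 10 genes was 0.52 and that of all genes 0.05. All 10 genes passed the limit of a mean of 0.1 FPKM, but Aldoc passed only through the 5-AZA samples, as did 1069 of the 13199 genes, so it had to differ and the counts that include it are descriptions. In bulk RNA, fewer cells of a type and less RNA per cell cannot be told apart. The genes were chosen with results known, and the counts do not say how often chance would give them.

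When a sample was left out, 1 sample stayed in its group and the test was weaker. A p-value or call lost in such a fit, here or below, does not show that the result rests on the sample left out. The median log2 fold change of the 10 genes was 0.42 without 5-AZA replicate 102 and 0.63 without 5-AZA replicate 101. It was 0.49 without untreated replicate 2 and 0.58 without untreated replicate 1. The number of genes past the threshold at any fold was 1 with no limit on low values and 3 without the trend in limma's variance. The median of the 10 genes lay between 0.41 and 0.63 in every setting tried. The number called over 2-fold was 1 with a pseudocount of 1 FPKM or with no limit on low values. Of the genes called among all genes 90.8% were higher (1724 against 174 lower), but 54.0% after quantile normalization (1041 against 886). Centring each sample on its median moved the median of all genes by -0.11 and quantile normalization by -0.17. The median of the 10 genes minus that of all genes was 0.47 as fitted and 0.58 after quantile normalization. Centring moves all genes of a sample alike and so cannot change this difference.

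**Figure D1:**
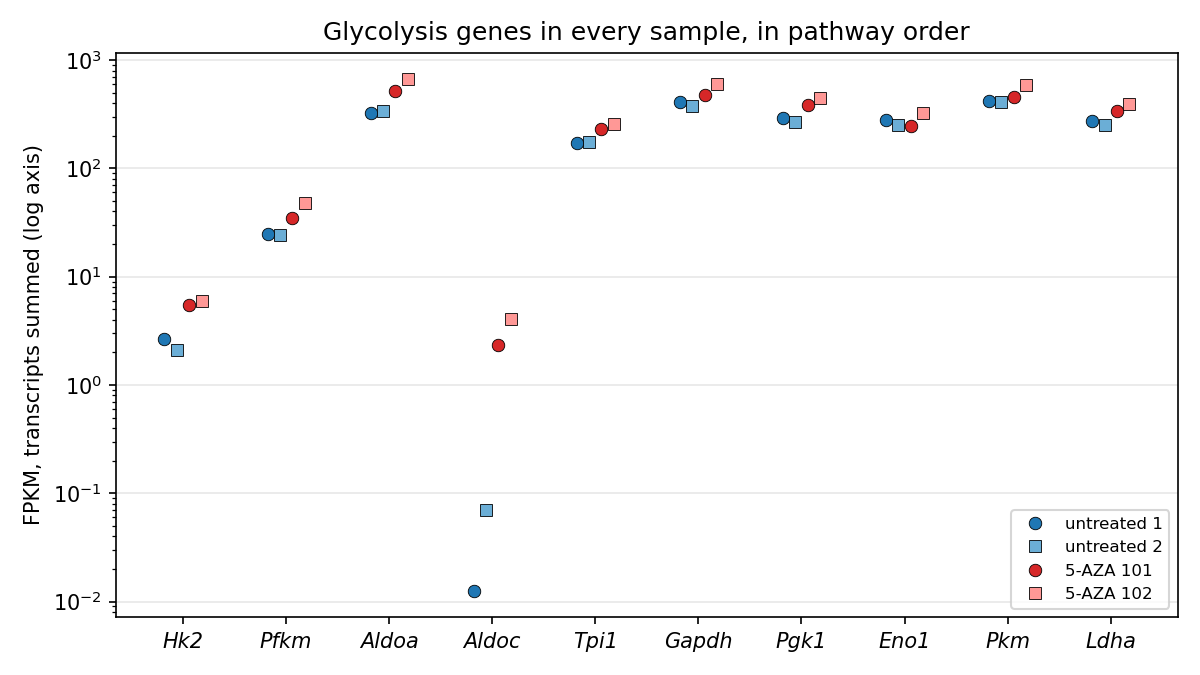
FPKM of the 10 genes in each of the 4 samples on a log axis, in pathway order, with 1 point per sample. The 5-AZA points lie above the untreated points in all genes but Eno1, where 5-AZA replicate 101 (249) lies below both untreated replicates.

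At the entry of the pathway, hexokinase 2 phosphorylates glucose. Hk2 had 2.67 and 2.09 FPKM in untreated replicates 1 and 2 and 5.49 and 5.95 FPKM in 5-AZA replicates 101 and 102. The groups did not overlap, and the log2 fold change was 1.24 (SE 0.19, adjusted p = 0.00152, limma). It was just under 2-fold, 0.99, with a pseudocount of 1 FPKM, and its adjusted p was 0.109 without 5-AZA replicate 101, 0.123 without 5-AZA replicate 102 and 0.0506 with no limit on low values. The more abundant hexokinase was Hk1, named after its values were seen, with 31.9 and 33.8 FPKM in the untreated replicates and 22.9 and 29.4 FPKM after 5-AZA. Both 5-AZA values of Hk1 were lower (log2 fold change -0.34, adjusted p = 0.107), and its adjusted p was 0.0444 after division by the FPKM sum, 0.0232 after centring on the median and 0.0279 after quantile normalization. In the other settings its adjusted p was from 0.0832 to 0.352, and its log2 fold change was -0.16 without 5-AZA replicate 101 and -0.51 without 5-AZA replicate 102. Phosphofructokinase adds the next phosphate at the main control point, and Pfkm encodes its muscle form. Pfkm had 24.6 and 24.1 FPKM in the untreated replicates and 35.2 and 47.9 FPKM in 5-AZA replicates 101 and 102. It rose by a log2 fold change of 0.75 (SE 0.15, adjusted p = 0.00578), with both 5-AZA values higher. The adjusted p of Pfkm was 0.123 with no limit on low values and 0.0601 without the trend. Its log2 fold change was 0.97 without 5-AZA replicate 101 and 0.53 without 5-AZA replicate 102.

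Aldolase splits fructose 1,6-bisphosphate, and its A form is the one of muscle and most other tissues. Aldoa had 325 and 336 FPKM in the untreated replicates and 521 and 674 FPKM after 5-AZA, which made it the member with the highest mean among the 5-AZA samples. Its log2 fold change was 0.84 (SE 0.13, adjusted p = 0.00184). The adjusted p of Aldoa was 0.0862 with no limit on low values. Its log2 fold change was 1.03 without 5-AZA replicate 101 and 0.66 without 5-AZA replicate 102. Aldoc, known from the brain, was listed at 0.0124 and 0.0699 FPKM in the untreated replicates and at 2.33 and 4.11 FPKM after 5-AZA. The groups did not overlap, and the log2 fold change was 4.53 (SE 0.37, adjusted p = 4.16e-05), a value that was 1.99 with a pseudocount of 1 FPKM and 6.20 with 0.01 FPKM. Without 5-AZA replicate 102 its adjusted p was 0.0508. Even after 5-AZA its mean of 3.22 ± 1.26 FPKM (SD, n = 2) was far below the 598 ± 108 FPKM (SD, n = 2) of Aldoa.

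Triosephosphate isomerase interconverts the products of aldolase. Tpi1 had 173 and 175 FPKM in the untreated replicates and 229 and 259 FPKM after 5-AZA, with a log2 fold change of 0.48 (SE 0.10, adjusted p = 0.00800). The adjusted p of Tpi1 was 0.0706 with no limit on low values and 0.0726 without the trend. Its log2 fold change was 0.57 without 5-AZA replicate 101 and 0.40 without 5-AZA replicate 102. Gapdh encodes the enzyme that oxidises glyceraldehyde 3-phosphate and yields NADH. It had 407 and 381 FPKM in the untreated replicates and 479.7 and 600.5 FPKM after 5-AZA. The groups did not overlap, and Gapdh rose by a log2 fold change of 0.45 (SE 0.13, adjusted p = 0.0332), a fold of 1.36. Without 5-AZA replicate 102 the log2 fold change of Gapdh was 0.28. Its adjusted p was between 0.0729 and 0.177 when any 1 of the 4 samples was left out, 0.194 with no limit on low values and 0.145 without the trend, and it ranged from 0.0159 to 0.194 over all settings tried.

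Phosphoglycerate kinase carries out the step that first returns ATP. Pgk1 had 295 and 269 FPKM in the untreated replicates and 384 and 446 FPKM after 5-AZA, a log2 fold change of 0.55 (SE 0.11, adjusted p = 0.00707). The adjusted p of Pgk1 was 0.0946 with no limit on low values and 0.0662 without the trend. Its log2 fold change was 0.66 without 5-AZA replicate 101 and 0.45 without 5-AZA replicate 102. Enolase makes phosphoenolpyruvate. Eno1 had 277 and 252 FPKM in the untreated replicates and 249 and 327 FPKM after 5-AZA. These values overlapped, and the difference did not pass the test (log2 fold change 0.11, SE 0.14, adjusted p = 0.621), being 0.0040 after centring on the median and -0.09 without 5-AZA replicate 102. Eno1 has a near-identical copy, Eno1b, between which short reads may be divided. Eno1b had 154, 142, 136 and 166 FPKM in untreated replicates 1 and 2 and 5-AZA replicates 101 and 102, and the sum of both genes, tried after the data were seen, had a log2 fold change of 0.08 (adjusted p = 0.723).

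Pyruvate kinase ends the pathway with the transfer of phosphate from phosphoenolpyruvate to ADP. Pkm had 416 and 413 FPKM in the untreated replicates and 459 and 588 FPKM after 5-AZA. Both 5-AZA values were higher, yet the change did not pass the test (log2 fold change 0.33, SE 0.13, adjusted p = 0.106). The log2 fold change of Pkm was 0.51 without 5-AZA replicate 101 and 0.15 without 5-AZA replicate 102. Lactate dehydrogenase A reduces pyruvate to lactate. Ldha had 273 and 250.1 FPKM in the untreated replicates and 337 and 394 FPKM after 5-AZA, and it rose by a log2 fold change of 0.48 (SE 0.11, adjusted p = 0.0144). The adjusted p of Ldha was 0.119 with no limit on low values and 0.0963 without the trend. Its log2 fold change was 0.59 without 5-AZA replicate 101 and 0.37 without 5-AZA replicate 102.

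In all 10 genes 5-AZA replicate 102 was above 5-AZA replicate 101, by 8.56% in Hk2 up to 76.5% in Aldoc. The same order held for 74.6% of all 13199 genes tested, and the FPKM sum over all genes was 10.1% higher in replicate 102. The 10 genes together held 0.638% and 0.628% of all FPKM in the untreated replicates and 0.823% and 0.925% in 5-AZA replicates 101 and 102. In the untreated samples the order of mean levels was Pkm, Gapdh, Aldoa, Pgk1, Eno1, Ldha, Tpi1, Pfkm, Hk2 and Aldoc, and Pgk1, Eno1 and Ldha overlapped with one another. In the 5-AZA samples the order was Aldoa, Gapdh, Pkm, Pgk1, Ldha, Eno1, Tpi1, Pfkm, Hk2 and Aldoc. There Aldoa, Gapdh and Pkm overlapped with one another, as did Pgk1 with Ldha and Eno1 with Tpi1.

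**Figure D2:**
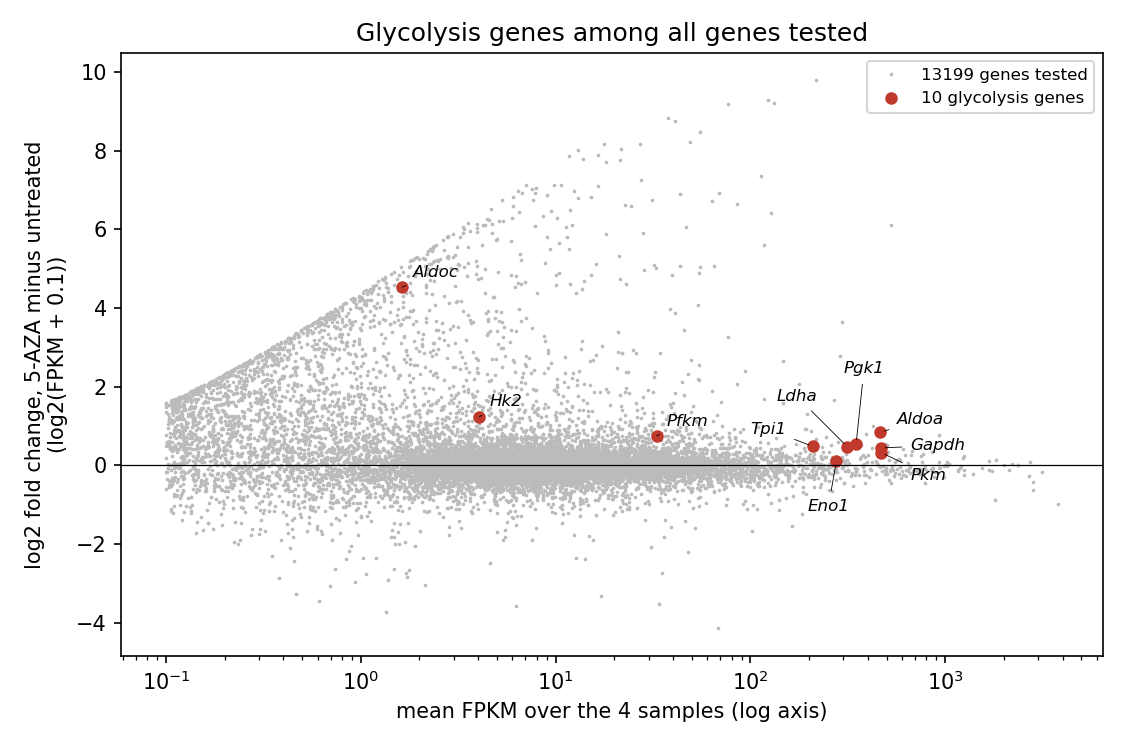
Log2 fold change (5-AZA minus untreated) against mean FPKM over the 4 samples on a log axis, with grey points for the 13199 genes tested and red points for the 10 glycolysis genes. Of the red points 7 lie above 100 FPKM, with changes from 0.11 (Eno1) to 0.84 (Aldoa), and Aldoc is near the upper edge of the low genes.

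The start regions of these genes were read because most members moved in the same direction. RefSeq lists 20 windows before a transcription start (build GRCm38.p6) for the 10 genes, some of which overlap. In the 250 bases before the start, ACGTG or GCGTG, the core letters of the hypoxia response element, stood on either strand in 16 of the 20 windows, 80% against 38.6% of all 32851 windows, where CACGTG counts as 1 place. At least 1 window of 9 genes held it, Tpi1 being the exception. CAGCTG, a sequence that MyoD and related factors can bind, was in 1 of the 20 windows, in Pkm, or 5% against 13% of all windows. The windows of the members had a median of 11.5 CpG and all windows a median of 6. Each of ACGTG and GCGTG contains a CpG, and the shares of 80% and 38.6% were not matched for CpG. Overlapping windows of a gene were counted singly, and whether the members exceed windows of like CpG was not tested. The letters describe these windows only, and neither binding nor methylation was measured. The 250 bases before the start follow, 5′ to 3′ along the gene, for the 4 members with a single listed start and for the upstream start of Ldha, with ACGTG and GCGTG on either strand in capitals.
Hk2, chr6:82774455-82774704 (minus strand): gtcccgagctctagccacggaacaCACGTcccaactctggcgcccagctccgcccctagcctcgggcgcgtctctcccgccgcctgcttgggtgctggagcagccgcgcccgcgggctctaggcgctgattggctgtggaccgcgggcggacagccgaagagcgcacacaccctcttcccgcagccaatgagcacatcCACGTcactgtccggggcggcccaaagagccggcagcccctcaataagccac
Tpi1, chr6:124814159-124814408 (minus strand): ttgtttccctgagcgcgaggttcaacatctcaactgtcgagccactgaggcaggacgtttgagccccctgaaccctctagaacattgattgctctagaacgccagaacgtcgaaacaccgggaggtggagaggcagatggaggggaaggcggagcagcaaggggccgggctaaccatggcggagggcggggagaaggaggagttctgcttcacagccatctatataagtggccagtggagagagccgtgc
Gapdh, chr6:125165774-125166023 (minus strand): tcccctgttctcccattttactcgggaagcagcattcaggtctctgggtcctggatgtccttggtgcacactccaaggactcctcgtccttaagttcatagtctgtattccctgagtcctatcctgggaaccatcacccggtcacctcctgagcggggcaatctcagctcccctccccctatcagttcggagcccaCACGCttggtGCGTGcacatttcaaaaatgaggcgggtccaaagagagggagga
Pgk1, chrX:106186850-106187099 (plus strand): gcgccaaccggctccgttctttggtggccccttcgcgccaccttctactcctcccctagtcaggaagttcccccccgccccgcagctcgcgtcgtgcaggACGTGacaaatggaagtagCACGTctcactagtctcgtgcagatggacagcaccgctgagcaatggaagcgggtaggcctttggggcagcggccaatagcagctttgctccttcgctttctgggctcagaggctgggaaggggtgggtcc
Ldha, chr7:46845554-46845803 (plus strand): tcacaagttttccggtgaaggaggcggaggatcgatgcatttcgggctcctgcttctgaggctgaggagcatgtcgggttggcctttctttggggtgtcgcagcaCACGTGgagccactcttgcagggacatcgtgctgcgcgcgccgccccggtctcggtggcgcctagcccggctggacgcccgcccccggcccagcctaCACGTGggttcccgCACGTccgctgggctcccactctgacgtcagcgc
The Ldha window held 3 such places, those of Hk2, Gapdh and Pgk1 held 2 each, and that of Tpi1 held 0.

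Pkm makes several transcripts, of which transcript variant 1 carries the exon of the M1 form found in adult muscle and transcript variant 2 that of the M2 form of growing cells. NM_001253883.1, variant 1, had 27.9 and 21.2 FPKM in the untreated replicates and 54.8 and 72.7 FPKM in 5-AZA replicates 101 and 102. It was called, with a log2 fold change of 1.37 (SE 0.20, adjusted p = 0.0325, limma over 35557 transcripts), where 2.1% of all transcripts were called higher and 0.262% lower. NM_011099.3, variant 2, had 363 and 359.9 FPKM in the untreated replicates and 372 and 482 FPKM after 5-AZA, and its change did not pass the test (log2 fold change 0.23, SE 0.13, adjusted p = 0.483). For each 100 FPKM of variant 2 there were 7.67 and 5.90 FPKM of variant 1 in the untreated replicates and 14.7 and 15.1 FPKM after 5-AZA.

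The share of variant 1 in Pkm FPKM was 5.93 ± 1.10% in the untreated and 12.1 ± 0.310% in the 5-AZA samples (SD, n = 2 in each group), while that of variant 2 was 87.3 ± 0.122% and 81.5 ± 0.753%. The groups did not overlap in either share. With 2 samples against 2 the exact two-sided permutation test cannot give a p below 0.333, the value it gave for both. The other Pkm transcripts held small shares. XM_011242673.1 had 6.95 and 7.97 FPKM in the untreated replicates and 13.3 and 15.8 FPKM after 5-AZA (log2 fold change 0.95, adjusted p = 0.0610). XM_006510855.1, XM_006510856.2 and XM_011242674.1 lay between 2.46 and 13.0 FPKM in all samples with overlapping groups.

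Among the Aldoa transcripts NM_007438.4 was the most abundant, with 252 and 248 FPKM in the untreated replicates and 389.5 and 497 FPKM after 5-AZA (log2 fold change 0.82, SE 0.13, adjusted p = 0.0398, but 0.185 to 0.342 when any 1 of the 4 samples was left out). XM_006507210.2 had 38.3 and 49.2 FPKM in the untreated replicates and 91.9 and 133 FPKM after 5-AZA, and it was called (log2 fold change 1.35, SE 0.21, adjusted p = 0.0417). Its share of Aldoa was 13.2 ± 2.03% in the untreated and 18.7 ± 1.49% in the 5-AZA samples (SD, n = 2 in each group, exact permutation p = 0.333, the smallest possible). NM_001177308.1 had 26.9, 33.3, 30.9 and 35.1 FPKM and NM_001177307.1 had 4.64, 4.29, 6.13 and 6.90 FPKM in untreated replicates 1 and 2 and 5-AZA replicates 101 and 102. XM_006507209.1 and XM_006507211.3 lay at or under 3.13 FPKM, with overlapping groups. Thus 2 of the 12 Pkm and Aldoa transcripts were called, and neither was called when any 1 sample was left out.

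Some transcripts of other members were singled out after their values were seen. Pfkm NM_021514.4, transcript variant 2, was listed at 0.000773 and 0.314 FPKM in the untreated replicates and at 16.6 and 21.2 FPKM after 5-AZA (log2 fold change 6.53, SE 0.69, adjusted p = 0.0131). Pfkm NM_001163487.1, transcript variant 1, had 22.8 and 21.8 FPKM in the untreated replicates and 17.0 and 25.6 FPKM after 5-AZA, which overlap. For each 100 FPKM of variant 1 there were 0.00339 and 1.44 FPKM of variant 2 in the untreated replicates and 97.5 and 82.6 FPKM after 5-AZA. Eno1 XM_017319953.1 had 0.798 and 1.58 FPKM in the untreated replicates and 9.56 and 13.4 FPKM after 5-AZA (log2 fold change 3.22, SE 0.38, adjusted p = 0.0182), while Eno1 NM_023119.2 held nearly all of the gene with 277, 249.7, 239 and 314 FPKM in the same order of samples. Aldoc NM_001303423.1 carried the rise of its gene, from 0.00630 and 0.00210 FPKM to 2.32 and 3.81 FPKM. The calls of NM_021514.4 and XM_017319953.1 ended without 5-AZA replicate 101 (adjusted p 0.247 and 0.228) and without 5-AZA replicate 102 (0.279 and 0.275), and that of XM_017319953.1 also without untreated replicate 1 (0.0913) or 2 (0.0816). Transcripts that share most of their sequence are hard to separate. The 2 main Gapdh transcripts also differed within the untreated group, where NM_001289726.1 had 66.9 and 138 FPKM and NM_008084.3 had 338 and 241 FPKM in replicates 1 and 2, and the cause was not tested.

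**Figure D3:**
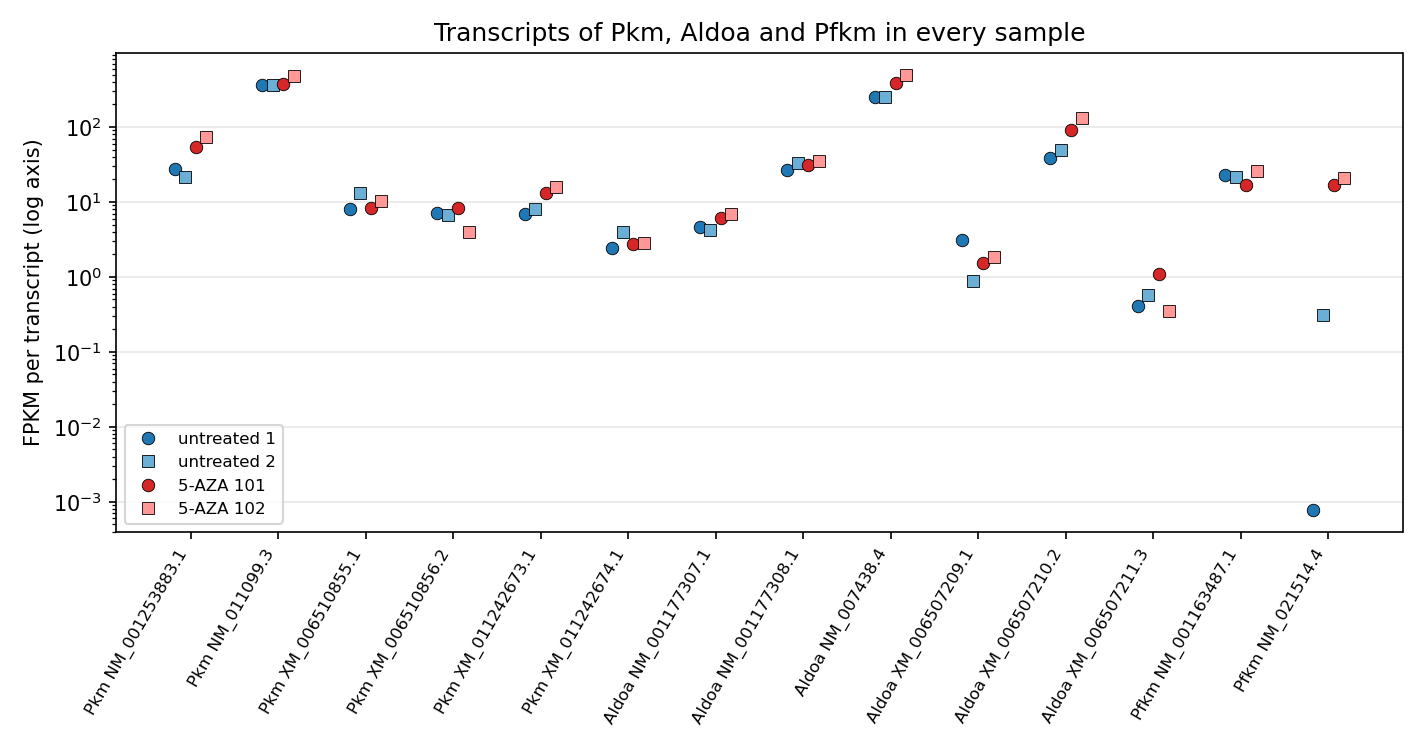
FPKM of the 12 Pkm and Aldoa transcripts that reached 1 FPKM in any sample and of 2 Pfkm transcripts, on a log axis with 1 point per sample. Pkm NM_001253883.1, Aldoa XM_006507210.2 and Pfkm NM_021514.4 have both 5-AZA points above the untreated points, and Pfkm NM_001163487.1 stays between 17.0 and 25.6 FPKM.

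Several RNA-binding proteins, and the kinase Nek2, are known to act on the choice between the M1 and M2 exons of Pkm. Of 8 genes for such proteins 0 were higher and 2 lower at an adjusted p below 0.05 (0 higher and 3 lower at an unadjusted p below 0.05 in limma), with a median log2 fold change of -0.17. Over all genes the shares were 18.6% higher and 5.93% lower at an adjusted p below 0.05. Hnrnpa1 had 243 and 231 FPKM in the untreated replicates and 181 and 196 FPKM after 5-AZA (log2 fold change -0.33, adjusted p = 0.0370). Its adjusted p was 0.294 without untreated replicate 1, 0.170 without untreated replicate 2, 0.138 without 5-AZA replicate 101 and 0.101 without 5-AZA replicate 102, 0.0955 with no limit on low values and 0.159 without the trend. The other was Srsf3, named after its values were seen, with 113 and 114 FPKM against 87.6 and 90.7 FPKM (log2 fold change -0.35, adjusted p = 0.0227). Hnrnpa2b1 had 115 and 108 FPKM against 91.0 and 92.4 FPKM (adjusted p = 0.0600), and it was lower as well in the 3 other scalings (adjusted p 0.0275, 0.0126 and 0.0276), where 3 of the 8 genes were lower. Ptbp1, named after its values were seen, had 41.9 and 38.9 FPKM against 37.1 and 40.2 FPKM (log2 fold change -0.06, adjusted p = 0.707, limma). These values overlap, as did those of Ptbp2, Rbm4, Rbm4b and Nek2.

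Of 20 other genes for isozymes and remaining steps of the pathway 11 passed the limit on low values, and 6 of these were higher and 0 lower at an adjusted p below 0.05 (6 higher and 1 lower, Hk1, at an unadjusted p below 0.05). In each of the 3 other scalings 1 gene, Hk1, was lower at an adjusted p below 0.05, and 5 in place of 6 were higher after quantile normalization. The median log2 fold change of the 11 was 0.68. Over all genes 18.6% were higher and 5.93% lower at an adjusted p below 0.05 as fitted. Pgam2, the muscle phosphoglycerate mutase, had 0.134 and 0.213 FPKM in the untreated replicates and 7.49 and 9.61 FPKM after 5-AZA, and it was called (log2 fold change 4.99, SE 0.26, adjusted p = 3.58e-06). Pgam1, the widespread form, had 219 and 191 FPKM against 204 and 212 FPKM, which overlap, and the sign of its log2 fold change of 0.02 turned after centring on the median and after quantile normalization. Eno3, the muscle enolase, had 9.26 and 7.15 FPKM in the untreated replicates and 53.8 and 67.1 FPKM after 5-AZA (log2 fold change 2.87, SE 0.16, adjusted p = 4.89e-06). Among the enolases the 5-AZA samples thus held far more Eno1 than Eno3, although only Eno3 of these 2 was called. Gpi1, which makes fructose 6-phosphate, had 36.4 and 35.3 FPKM against 60.7 and 66.4 FPKM (log2 fold change 0.82, adjusted p = 0.000393). The others were Pfkl, Pfkp and Eno2, named after their values were seen, with log2 fold changes of 0.92, 0.91 and 0.68. Gapdhs and Pgk2, isozyme genes of the testis, were listed at 0 in all 4 samples, as was Pklr.

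**Figure D4:**
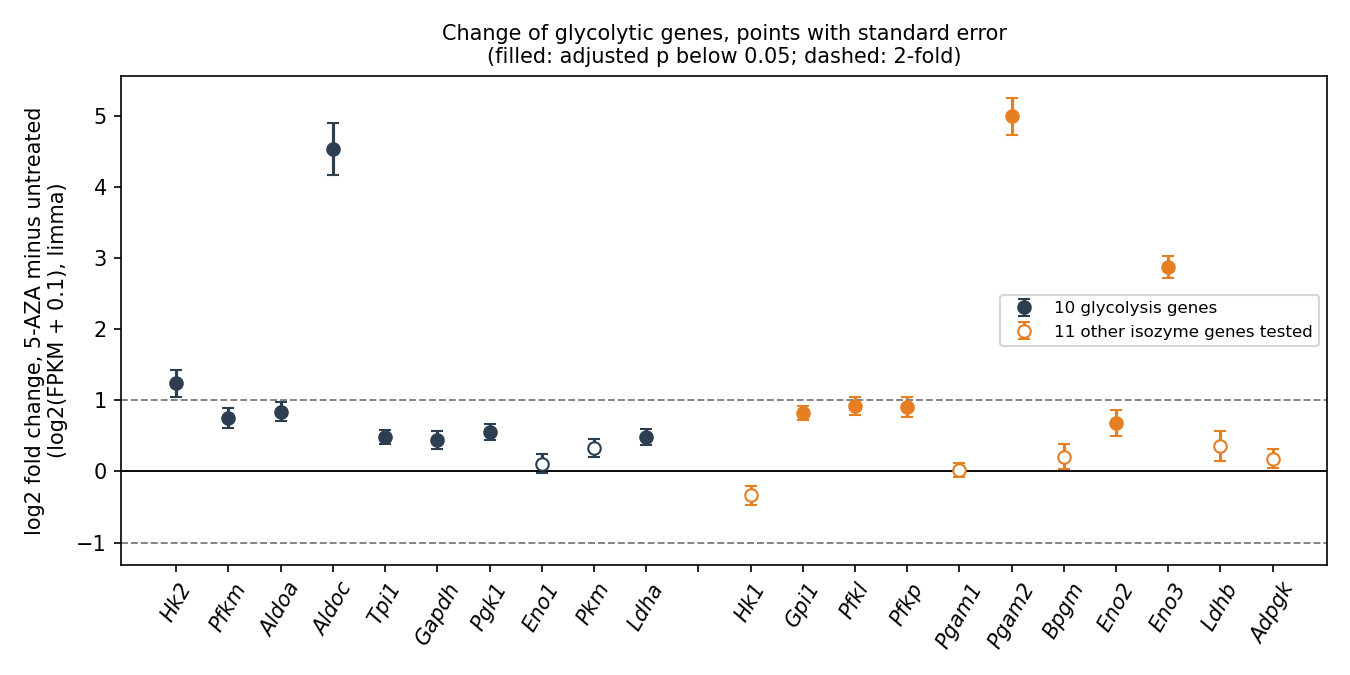
Log2 fold change (5-AZA minus untreated) with its standard error for the 10 glycolysis genes and the 11 other isozyme genes tested, filled where the adjusted p was below 0.05, with dashed lines at 2-fold. Aldoc (4.53), Pgam2 (4.99) and Eno3 (2.87) stand apart from the other genes, and Hk2 (1.24) is the remaining one above the upper line.

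Glucose enters cells through Slc2a carriers and lactate leaves through Slc16a carriers. Of 8 such genes 6 were high enough to be tested, with 4 called higher and 1 lower at any fold, and their median log2 fold change was 1.10. Over all genes 13.1% were called higher and 5.93% were lower at any fold. Slc2a1, the widespread glucose carrier, fell from 15.3 and 14.9 FPKM in the untreated replicates to 10.5 and 8.93 FPKM after 5-AZA (log2 fold change -0.64, SE 0.13, adjusted p = 0.00706). Slc2a4, the insulin-responsive carrier of muscle and fat, was at 0.0763 and 0.0942 FPKM and then at 2.03 and 3.47 FPKM, and it passed the limit only through the 5-AZA samples, as did Slc16a3, with 0.0164 and 0 FPKM against 1.77 and 1.28 FPKM. Slc16a1 rose from 14.2 and 11.9 FPKM to 30.5 and 28.8 FPKM (log2 fold change 1.18, adjusted p = 0.000176), and Bsg, the chaperone of these lactate carriers, from 279.8 and 285 FPKM to 522 and 619.7 FPKM (log2 fold change 1.01, adjusted p = 0.000256), a change under 2-fold in the 3 other scalings, without untreated replicate 1 and without 5-AZA replicate 102. Slc2a8 had 3.45 and 4.27 FPKM against 3.93 and 4.26 FPKM. Without 5-AZA replicate 101 or 102 the adjusted p was 0.0553 and 0.0841 for Slc2a1 and 0.0812 and 0.0769 for Slc16a1, and that of Slc2a1 was 0.0642 with no limit on low values.

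Of 13 regulators of glycolysis 3 were called higher and 1 was lower at any fold. The shares over all genes were 13.1% called higher, and 18.6% higher and 5.93% lower at any fold. Hif1a, which induces glycolysis genes at low oxygen and is itself controlled mainly as a protein, had 108 and 116 FPKM in the untreated replicates and 80.3 and 94.1 FPKM after 5-AZA (log2 fold change -0.37, SE 0.11, adjusted p = 0.0398). Its adjusted p was 0.111 without untreated replicate 1, 0.257 without untreated replicate 2, 0.172 without 5-AZA replicate 101 and 0.0917 without 5-AZA replicate 102, 0.159 with no limit on low values and 0.170 without the trend. Epas1, its relative, rose from 0.596 and 0.583 FPKM to 2.85 and 3.39 FPKM (log2 fold change 2.22, adjusted p = 0.000168). Pfkfb1, a bifunctional enzyme that sets fructose 2,6-bisphosphate, had 0.340 and 0.309 FPKM against 1.18 and 1.43 FPKM (log2 fold change 1.72, adjusted p = 0.00213, or 0.0586 without 5-AZA replicate 102), a log2 fold change that was 0.80 with a pseudocount of 1 FPKM and 0.75 after quantile normalization. Egln3, an oxygen sensor, was listed at 0 in both untreated replicates and at 1.01 and 0.636 FPKM after 5-AZA, and it passed the limit on low values only through the 5-AZA samples and the 2-fold criterion not with a pseudocount of 1 FPKM. Egln2 had 18.2 and 18.0 FPKM against 16.0 and 18.8 FPKM.

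Of 14 hypoxia response genes outside glycolysis 8 were higher and 0 lower at an adjusted p below 0.05 in limma (8 and 1 at an unadjusted p below 0.05). After centring on the median and after quantile normalization 7 in place of 8 were higher. In each of the 3 other scalings 1 gene was lower. This was Kdm3a, named after its values were seen, with 10.98 and 10.44 FPKM in the untreated replicates and 8.29 and 8.22 FPKM after 5-AZA (log2 fold change -0.37, adjusted p = 0.0653 as fitted). The 14 genes had a median log2 fold change of 0.60, and 5 were called. Over all genes 18.6% were higher and 5.93% lower at an adjusted p below 0.05 as fitted, and 13.1% were called higher. Ero1l, an oxidase of protein folding, rose from 20.1 and 19.2 FPKM to 50.2 and 51.0 FPKM (log2 fold change 1.36, SE 0.10, adjusted p = 2.06e-05). Vegfa had 6.89 and 5.63 FPKM against 18.0 and 15.1 FPKM, Car9 9.49 and 6.58 FPKM against 25.7 and 32.5 FPKM, and Adm 1.59 and 1.44 FPKM against 9.97 and 8.21 FPKM, with log2 fold changes of 1.39, 1.86 and 2.50. Without 5-AZA replicate 101 or 102 the adjusted p was 0.0864 and 0.0720 for Vegfa and 0.0891 and 0.109 for Car9, and that of Car9 was 0.0535 with no limit on low values. Car12 was at 0.0220 and 0 FPKM and then at 1.33 and 1.61 FPKM, and it passed the limit on low values only through the 5-AZA samples. P4ha1, with 45.3 FPKM in both untreated replicates and 76.3 and 72.7 FPKM after 5-AZA, rose less than 2-fold (log2 fold change 0.72, adjusted p = 0.000637), and Bnip3l had 54.0 and 54.1 FPKM against 58.1 and 48.5 FPKM. Oxygen was not measured.

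Of 13 genes of pyruvate entry into mitochondria 5 were higher and 1 lower at any fold, and 0 were called over 2-fold (5 and 2 at an unadjusted p below 0.05). Beside the lists of this paragraph, the shares over all genes were 18.6% higher and 5.93% lower at any fold, and 13.1% called higher. The pyruvate carrier genes Mpc1, with 122 and 129 FPKM against 136 and 151 FPKM, and Mpc2, with 86.5 and 95.1 FPKM against 95.5 and 110 FPKM, did not pass the test. The 5 higher were Pdhb, Dlat, Dld, Pdk1 and Pdk4 and the lower one was Pdk3, named after their values were seen, as was Pdp2, which was lower too after centring on the median and after quantile normalization. Of 7 genes of gluconeogenesis 3 were higher, with Pck1 at 0 and 0.0112 FPKM against 0.379 and 0.945 FPKM, Fbp2 listed at 0 in both untreated replicates and at 0.342 and 0.488 FPKM after 5-AZA, and Pcx at 11.7 and 11.1 FPKM against 17.4 and 27.9 FPKM. Pck1 and Fbp2, the 2 called, passed the limit only through the 5-AZA samples, and both were under 2-fold with a pseudocount of 1 FPKM. The adjusted p of Pcx was 0.0845 without 5-AZA replicate 102, with a log2 fold change of 0.61 in place of 0.95. It was 0.163 with no limit on low values and 0.0711 without the trend, and that of Pck1 was 0.0725 with no limit. Fbp1 and G6pc3, named after their values were seen, had both 5-AZA values lower without passing the test (0.170 and 0.321 FPKM against 0.0181 and 0.158 FPKM, and 9.74 and 9.01 FPKM against 7.11 and 8.97 FPKM), and Fbp1 was called lower after quantile normalization. Pck2 had 19.0 and 16.2 FPKM against 15.9 and 18.1 FPKM. Of 8 genes of the pentose phosphate pathway 1, G6pdx, named after its values were seen, was higher at any fold, and Taldo1 (66.5 and 64.0 FPKM against 73.6 and 80.7 FPKM) and Pgd (59.3 and 46.9 FPKM against 58.9 and 72.4 FPKM) did not pass the test.

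As the reference of the study's qPCR, Gapdh was set beside 18 other genes used as references. Their median log2 fold change was -0.11, and it was -0.13 after division by the FPKM sum, -0.22 after centring on the median and -0.09 after quantile normalization. At an adjusted p below 0.05, 2 were higher and 2 lower as fitted, against 3 and 2, 2 and 5, and 3 and 4 in these scalings. Tfrc had 11.4 FPKM in both untreated replicates and 22.3 and 23.5 FPKM after 5-AZA (log2 fold change 1.00, adjusted p = 0.000237, under 2-fold in the 3 other scalings, with a pseudocount of 1 FPKM and without 5-AZA replicate 102), and B2m, named after its values were seen, had a log2 fold change of 0.55. Ppia, the most abundant, had 3347 and 3504 FPKM in the untreated replicates and 2150.4 and 2315 FPKM after 5-AZA (log2 fold change -0.62, SE 0.12, adjusted p = 0.00662, or 0.0623 without untreated replicate 2, 0.124 without 5-AZA replicate 101, 0.103 without 5-AZA replicate 102 and 0.147 with no limit on low values), and Tubb5, also named after its values were seen, had one of -0.37. Rps18 had 2352 and 2307 FPKM against 2231 and 2518 FPKM, which overlap, and the sign of its log2 fold change of 0.03 turned after centring on the median. The ratio of Gapdh to the other gene was higher in both 5-AZA samples for 16 of the 18 genes. Seen from the other side, 65.4% of all genes had both 5-AZA samples below both untreated samples relative to Gapdh. For each 100 FPKM of Actb, named after its values were seen, there were 26.3 and 26.7 FPKM of Gapdh in the untreated replicates and 39.4 and 45.2 FPKM in 5-AZA replicates 101 and 102.

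**Figure D5:**
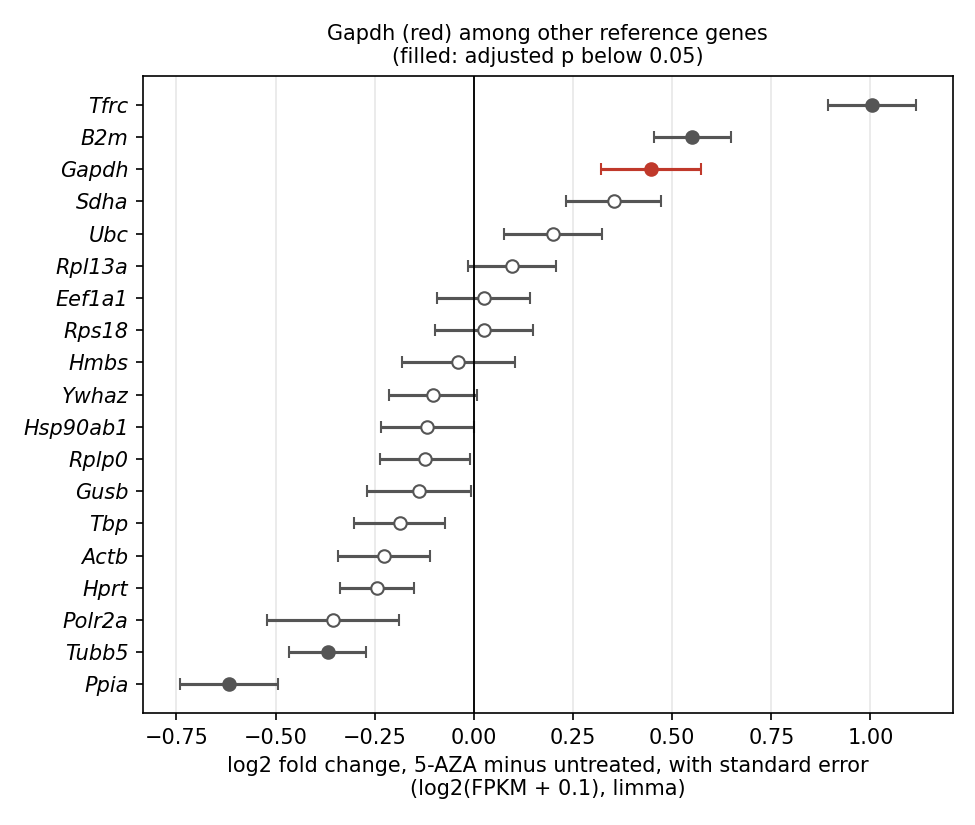
Log2 fold change (5-AZA minus untreated) with its standard error for Gapdh (red) and 18 other reference genes, filled where the adjusted p was below 0.05. Gapdh (0.45) lies between B2m (0.55) and the other genes, with Tfrc (1.00) highest and Ppia (-0.62) lowest.

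When each sample's log2 Gapdh was subtracted, 12.7% of the other 13198 genes were higher and 45.9% lower at an adjusted p below 0.05, against 18.6% and 5.93% without this step. All genes then share the error of the Gapdh values. Of the 9 other members 3 were higher relative to Gapdh, Hk2 (log2 fold change 0.79, SE 0.18, adjusted p = 0.00693), Aldoa (0.40, SE 0.13, adjusted p = 0.0302) and Aldoc (4.08, SE 0.33, adjusted p = 2.66e-05). Aldoc passed the limit on low values only through the 5-AZA samples, so it had to differ. The counts here that include Aldoc are descriptions, and its log2 fold change depends on the pseudocount. Eno1 was lower (-0.34, SE 0.12, adjusted p = 0.0422), and Pfkm, Tpi1, Pgk1, Pkm and Ldha did not pass the test, with values from -0.12 to 0.30. The number of members past the threshold, 4 of 9, was 2 without untreated replicate 1, 2 without untreated replicate 2, 2 with no limit on low values and 2 without the trend. Of the 8 differentiation genes that the study assayed against Gapdh 7 were tested, and on the FPKM scale 6 were called, with a median log2 fold change of 3.17, while after quantile normalization 5 were called, with a median of 2.08. Relative to Gapdh the median of the 7 was 2.72, and 6 were higher at an adjusted p below 0.05, 5 of them over 2-fold. The medians 3.17 and 2.72 are the values of Myod1, listed at 0 in both untreated replicates, so they rest on the pseudocount. With a pseudocount of 1 FPKM the log2 fold change of Myod1 on the FPKM scale was 0.88. On the FPKM scale 3 of the 6 called passed the limit only through the 5-AZA samples.

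Among these, Myog had 0.0806 and 0.101 FPKM in the untreated replicates and 33.0 and 52.4 FPKM after 5-AZA. Its log2 fold change was 7.77 on the FPKM scale and 7.33 relative to Gapdh. Tnnt2 (5.89 and 5.44), Des (6.12 and 5.67) and Mef2c (1.28 and 0.83) differed in the same way between the FPKM scale and the scale relative to Gapdh, and on the FPKM scale the adjusted p of Mef2c was 0.0579 without 5-AZA replicate 102. Myod1 was listed at 0 in both untreated replicates and at 0.512 and 1.23 FPKM after 5-AZA, and Myh6 reached 0.309 and 0.385 FPKM from values at or next to 0. With a pseudocount of 1 FPKM both were under 2-fold, and after quantile normalization the adjusted p of Myh6 was 0.0709. That of Myod1 was 0.0584 with no limit on low values. Gata4 had 2.13 and 2.17 FPKM against 2.02 and 3.09 FPKM, with a log2 fold change of 0.21 on the FPKM scale (adjusted p = 0.584) and -0.24 relative to Gapdh (adjusted p = 0.312). Nkx2-5 was too low to be tested, with 0, 0.0975, 0.0419 and 0 FPKM in untreated replicates 1 and 2 and 5-AZA replicates 101 and 102.

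The genes whose values over the 4 samples were most like those of Gapdh were sought among 528 genes with a mean of at least 100 FPKM, by the root mean square difference of log2 values centred on their mean. They were Aes (0.0283), Ldha (0.0407) and Hspa9 (0.0517). Aes had 125 and 117 FPKM in the untreated replicates and 142 and 188 FPKM after 5-AZA, and Hspa9 had 120.2 and 113 FPKM against 147 and 167 FPKM.

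Markers of cell types moved with the treatment. All 12 skeletal muscle markers were called higher, 7 of them passing the limit only through the 5-AZA samples, and their summed level was 1.79 and 1.69 FPKM in the untreated replicates and 1164 and 1724 FPKM in 5-AZA replicates 101 and 102, with Mylpf the most abundant (0.392 and 0.376 FPKM against 353 and 517 FPKM). The other called muscle markers were Acta1, Ckm, Myl1, Tnnc2, Tnni2, Tnnt3, Myh3, Myh8, Casq1, Ryr1 and Mb, of which Ryr1 was under 2-fold with a pseudocount of 1 FPKM. Of 10 adipocyte markers 9 were tested and 8 called higher (Adipoq, Fabp4, Plin1, Lpl, Cidec, Cfd, Retn and Slc2a4). Of these 8, 2 (Cidec and Slc2a4) passed the limit only through the 5-AZA samples. The sum of all 10 markers was 46.9 and 30.4 FPKM against 1166 and 1594 FPKM, with Fabp4 the most abundant (22.9 and 9.66 FPKM against 887 and 1196 FPKM). Pparg had 13.8 and 15.9 FPKM against 22.2 and 36.0 FPKM, under 2-fold. The adjusted p of Adipoq, Fabp4, Plin1, Cfd, Retn and Pparg was from 0.0579 to 0.140 without 5-AZA replicate 101 and from 0.0657 to 0.143 without 5-AZA replicate 102. With no limit on low values it was 0.0712 for Retn and 0.185 for Pparg, and without the trend 0.0859 for Pparg. Of the glycolysis lists, Slc2a4 is also an adipocyte marker. In both sums, as in all 10 glycolysis genes, 5-AZA replicate 102 was above 5-AZA replicate 101. The part of these cell types in the levels of the glycolysis genes was not tested.

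Of 10 proliferation markers 0 were higher or lower at an adjusted p below 0.05 in limma (0 higher and 2 lower at an unadjusted p below 0.05), although 2 or 3, Pcna among them, were lower in the other scalings. Both 5-AZA values were below both untreated values in 7 of the 10 and above them in 0, against 3359 and 4852 of all 13199 genes. Their sum was 267 and 215 FPKM in the untreated replicates and 207 and 203 FPKM after 5-AZA, with Pcna the most abundant (93.3 and 83.3 FPKM against 70.8 and 71.8 FPKM) and Top2a at 61.1 and 45.8 FPKM against 51.9 and 48.5 FPKM. Of 10 fibroblast markers 4 were higher and 5 lower at any fold (3 to 5 and 4 to 5 in the other scalings), with a sum of 9230.1 and 9256 FPKM against 6180.3 and 6023 FPKM. S100a4, the most abundant, had 5027 and 5002 FPKM against 2758 and 2355 FPKM, Vim had 2268 and 2406 FPKM against 1178 and 1380.3 FPKM, and Thy1, the 1 called, had 0.578 and 0.785 FPKM against 10.4 and 14.2 FPKM. The adjusted p of S100a4 was 0.0664 without 5-AZA replicate 101, 0.0858 without 5-AZA replicate 102 and 0.264 after quantile normalization, and that of Vim was 0.0813 and 0.0619 without these replicates. With no limit on low values they were 0.104 and 0.0771. After centring on the median S100a4 was called lower (log2 fold change -1.08, adjusted p = 0.00304, limma). Of 6 macrophage markers 3 passed the limit on low values. The sum of all 6 was 4.52 and 5.79 FPKM against 6.30 and 8.43 FPKM, with Cd14 the most abundant (2.40 and 2.59 FPKM against 3.10 and 3.24 FPKM). Cd68 was called (1.16 and 1.47 FPKM against 2.27 and 3.69 FPKM), with an adjusted p of 0.0975 without 5-AZA replicate 101, 0.197 without 5-AZA replicate 102, 0.0816 after quantile normalization, 0.163 with no limit on low values and 0.0591 without the trend, and under 2-fold with a pseudocount of 1 FPKM, after centring on the median and without untreated replicate 1. Lyz2 had 0.957 and 1.70 FPKM against 0.800 and 1.45 FPKM. Of the defining markers Adgre1 was listed at 0 in all samples and Ptprc at 0 in all but 5-AZA replicate 101 (0.0631 FPKM), while Csf1r, too low to be tested, had 0.00672 and 0.0372 FPKM in the untreated replicates and 0.0639 and 0.05004 FPKM after 5-AZA. The part of these cells in the levels of the glycolysis genes was not tested either.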

How the data were processed

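RNA of 2 untreated and 2 5-AZA samples of C3H10T1/2 cells was analysed. Per the labels and the paper's methods, the authors depleted ribosomal RNA, made stranded libraries and trimmed the reads. The submitters' processing notes name Trimmomatic, HISAT2, Bowtie2 2.2.9 and eXpress 1.5.1, with no roles, and the build mm9. The authors deposited FPKM per mRNA transcript and RPM per circRNA. Their lncRNA values were not used here, and no column of sample values of the mRNA and circRNA files was left out (0).

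Transcripts were summed per gene. log2(FPKM + 0.1) of genes, or of single transcripts, with a mean of at least 0.1 FPKM was fitted with limma 3.58.1 (lmFit, eBayes with trend) in R 4.3.3, with Benjamini-Hochberg adjustment over all genes or transcripts tested. Shares of transcripts were compared with an exact two-sided permutation test. The fit was also run on simulated data, for genes with a mean of at least 1 FPKM and with independent errors. That run covers neither lower genes nor shifts shared by the genes of a sample. Read counts were not used here, so depth gives no interval, and the number of samples limits the precision. Start regions came from RefSeq tables of build GRCm38.p6. Values were read with data.table (version 1.17.8) and plotted with matplotlib (version 3.10.9).

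The members and lists were chosen with earlier results of these data known. Genes named were the 10 members, each Pkm and Aldoa transcript with at least 1 FPKM in any sample, every called gene of each list with the 2 most abundant uncalled ones, the 3 genes most like Gapdh, and circRNAs of members. Other pseudocounts, limits on low values and scalings, eBayes without trend and the omission of each sample were tried.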

Additional observations from a re-analysis of the deposited data

Results flagged for a closer look

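Among 4295 circRNAs, whose values enter no comparison above, 1 came from a glycolysis gene. circRNA_3564 of Ldha (chr7:46850178-46851058 as listed, 348 bases, sense-overlapping) had 0 and 0.0214 RPM in untreated replicates 1 and 2 and 0.0861 and 0.0532 RPM in 5-AZA replicates 101 and 102, above the level in the untreated samples. The lowest value above 0 of any circRNA was 0.0213 RPM, so these values stand for few reads, and no test was run. The submitters' notes name the build mm9, yet 98.2% of 4047 circRNAs with a host gene in RefSeq's GRCm38.p6 table lay within that gene's span there.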

How the results depend on the processing

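Each choice was changed alone, and a lone sample left in a group was assumed to vary like the other group. Fits with a sample left out are weaker tests, so calls lost in them do not show that a result rests on that sample. Of the 10 members called over 2-fold the count was 2 as fitted, 1 with a pseudocount of 1 FPKM, 1 with no limit on low values and 0 to 2 with single samples left out. At any fold it was 8 as fitted, 1 with no limit, 3 without the trend and 0 to 6 with samples left out. None was lower in any setting in limma (0, and 0 at an unadjusted p below 0.05 as fitted). Called Pkm and Aldoa transcripts numbered 2 as fitted and 0 with any sample left out. The difference in the share of Pkm variant 1, 6.22 points, was 5.44 to 6.99 with samples left out. Relative to Gapdh 4 members passed as fitted, 2 with no limit, 2 without the trend and 2 to 5 with samples left out. Among all genes 1724 were called higher as fitted, 875 with a pseudocount of 1 FPKM, 845 with a mean of at least 1 FPKM, 1041 after quantile normalization and 733 to 1617 with samples left out. Lower were 174 as fitted, 86 with a pseudocount of 1 FPKM, 83 with no limit, 886 after quantile normalization and 52 to 184 with samples left out. Signs of log2 fold changes turned only for changes that had not passed the test. After median centring they turned for Pgam1 (-0.0841), Slc2a8 (-0.0162) and Rps18 (-0.0818), and after quantile normalization for Pgam1 (-0.00455), Slc2a8 (-0.0903) and Gata4 (-0.114). With single samples left out they turned for these genes, given with their lowest and highest values: Eno1 (-0.0869 to 0.309), Pgam1 (-0.0733 to 0.119), Slc2a8 (-0.0582 to 0.24), Egln2 (-0.175 to 0.0521), Pck2 (-0.162 to 0.0638), Bnip3l (-0.156 to 0.104), Rps18 (-0.0621 to 0.112), Gata4 (-0.0843 to 0.506), Top2a (-0.283 to 0.131) and Lyz2 (-0.617 to 0.168). They did so for these transcripts as well: NM_001177308.1 (-0.0149 to 0.293), XM_006507209.1 (-0.857 to 0.851), XM_006507211.3 (-0.368 to 1.01), XM_006510855.1 (-0.469 to 0.216), XM_006510856.2 (-0.767 to 0.271), XM_011242674.1 (-0.519 to 0.163) and NM_001163487.1 (-0.387 to 0.199). The cause was not tested. Of the other values of the 10 members 90 kept their direction and their side of the adjusted p threshold of 0.05, at any fold, and 30 kept only the direction. For 70 genes of other lists these numbers were 745 and 61, with 6 more that came to pass the test, and for 15 transcripts 63 and 18. Eno1 summed with Eno1b, chosen after seeing the data, gave 0.08. The depth behind FPKM is unknown, so what it limits cannot be given.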
